A study of Mus musculus with 5 samples.

Results

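The cells described here are progenitors of the common myeloid progenitor (CMP) gate of mouse bone marrow that held UMIs of Pf4, the gene of platelet factor 4. A UMI (unique molecular identifier) marks 1 captured transcript. Barcodes had to show at least 500 genes and no more than 10% mitochondrial UMIs, and of the 3713 CMP cells that did, the 128 with 5 or more UMIs of Pf4 were taken and are called Pf4 cells. They were 3.45% of the CMP cells, and the 4 gates together held 28894 cells. Because Pf4 itself chose the cells, its own values are a description. The other 3585 CMP cells are the group they are set against.

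All cells came from the marrow of healthy wild-type C57BL/6 mice and were sorted by flow cytometry. CMP cells lacked lineage antigens and SCA1, carried KIT and CD34, and were negative for CD16/32. Megakaryocyte/erythroid progenitors (MEP) differed from them in being CD34-negative, and granulocyte/monocyte progenitors (GMP) in being CD16/32-positive. LSK cells, the compartment that holds the stem cells, were lineage-negative and positive for SCA1 and KIT. The labels give neither the ages of the mice nor how many went into each sort. The labels list 2 CMP samples, but both hold the same matrix, which was used once. With a single library for each gate, no test or p-value is given, and the 95% intervals cover counting error only.

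Megakaryocytes are the marrow cells that shed platelets. As they mature they take on the receptors by which platelets stick to a damaged vessel, and fill alpha granules with stored proteins such as platelet factor 4. Their program is known to depend on GATA, ETS and RUNX family factors, and it shares its early steps with the red cell lineage.

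The promoters of the 3 genes that mark these cells and of Gp1bb, which codes for another platelet receptor chain, follow as RefSeq sequence of GRCm38.p6. Each is 250 bases before and 50 bases after the gene start in RefSeq, written 5′ to 3′ along the gene's own strand. Capitals mark matches on either strand to any of the following motifs. The motif of GATA factors was searched as AGATAA. That of ETS factors such as Fli1 was searched as AGGAAG, and also in its other common form, CGGAAG. The motif of RUNX factors was searched as TGTGGT. That of NF-E2, the factor of platelet release, was searched as TGANTCA. Where matches overlap, the capitals run together. RefSeq's start of Itga2b lies inside the gene as GENCODE M21 annotates it, so that most of its window does too. The Pf4 window is chr5:90772185-90772484 (plus strand), the Itga2b window chr11:102469834-102470133 (minus strand), the Gp9 window chr6:87777820-87778119 (plus strand) and the Gp1bb window chr16:18622354-18622653 (minus strand).
Pf4: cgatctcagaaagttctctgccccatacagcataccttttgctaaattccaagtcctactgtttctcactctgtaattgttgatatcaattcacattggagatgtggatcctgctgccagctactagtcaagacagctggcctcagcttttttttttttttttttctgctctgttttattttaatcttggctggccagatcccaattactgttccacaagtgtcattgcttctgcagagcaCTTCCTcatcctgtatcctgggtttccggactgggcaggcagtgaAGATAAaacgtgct
Itga2b: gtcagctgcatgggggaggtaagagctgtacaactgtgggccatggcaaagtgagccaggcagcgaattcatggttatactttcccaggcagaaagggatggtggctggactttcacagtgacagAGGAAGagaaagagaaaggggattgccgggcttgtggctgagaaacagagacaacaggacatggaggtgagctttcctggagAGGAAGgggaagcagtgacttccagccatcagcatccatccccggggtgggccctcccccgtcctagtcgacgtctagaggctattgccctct
Gp9: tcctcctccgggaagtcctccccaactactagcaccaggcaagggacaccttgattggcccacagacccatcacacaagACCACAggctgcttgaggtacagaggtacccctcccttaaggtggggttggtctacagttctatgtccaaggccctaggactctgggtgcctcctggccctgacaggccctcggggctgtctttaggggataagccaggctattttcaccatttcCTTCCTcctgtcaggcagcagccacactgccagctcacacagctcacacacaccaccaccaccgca
Gp1bb: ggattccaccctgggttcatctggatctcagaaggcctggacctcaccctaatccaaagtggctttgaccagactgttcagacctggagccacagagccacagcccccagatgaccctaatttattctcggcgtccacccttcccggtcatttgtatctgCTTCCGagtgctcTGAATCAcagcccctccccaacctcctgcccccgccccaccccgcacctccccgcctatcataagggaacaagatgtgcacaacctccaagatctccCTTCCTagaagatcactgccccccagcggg

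The Pf4 window held 1 GATA and 1 ETS match, the Itga2b window 2 ETS matches, the Gp9 window 1 ETS and 1 RUNX match, and the Gp1bb window 2 ETS matches and 1 NF-E2 match. Of all 32851 promoter windows of this length, 46.5% held the ETS letters, 16.8% the RUNX letters, 11.2% the GATA letters and 7.81% the NF-E2 letters. Of the 194 genes that were higher in Pf4 cells by the rule given with the gene levels, 145 matched, with 194 windows in all since a gene can have several. Of these windows, 55.7% held the ETS letters, 9.79% the RUNX letters, 8.25% the GATA letters and 9.79% the NF-E2 letters. In 162 windows of genes that were lower in Pf4 cells, the shares were 53.1%, 19.8%, 7.41% and 6.17% in the same order. These are letter matches in short windows.

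Pf4 cells were sequenced to about the depth of the cells around them. Their median was 7359.5 UMIs and 2415 genes a cell, against 6894 UMIs and 2220 genes in other CMP cells, and mitochondrial UMIs were 3.16% and 3.13%. In total the Pf4 cells held 956250 UMIs and the other CMP cells 25962838. A doublet score marked 6 of the 128 Pf4 cells (4.69%) and 104 other CMP cells (2.90%), and these stayed in the values unless stated. CMP cells shared 36 cell barcodes with MEP cells, 55 with LSK cells and 36 with GMP cells. Among Pf4 cells of CMP the numbers were 0, 3 and 2, and none of the shared barcodes was a Pf4 cell in both libraries.

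The 128 cells held between 5 and 319 UMIs of Pf4, with a median of 44.5 and quartiles of 16 and 99.25. On the per-million scale of the cell's own UMIs (CPM), they ranged from 675 to 24795. Of the other CMP cells, 3282 had no Pf4 UMI and 303 had 1 to 4, which together held 4.26% of the library's Pf4 UMIs. In GMP cells, whose gate is fated to granulocytes and monocytes, 1.56% had a Pf4 UMI at a median of 9100 UMIs a cell. At the threshold, the 16 cells with 5 to 9 Pf4 UMIs included 12 with Itga2b and 10 with Gp1bb, and the 20 cells with 3 or 4 included 8 and 7. Of the same cells, 8 of the 16 and 4 of the 20 held 3 or more of 5 platelet surface genes.

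The label was compared with genes that the rule did not use. These genes were chosen with earlier results of these data known, so the comparison is a description and no independent check. Itga2b, the alpha chain of the fibrinogen receptor (CD41), lies on chromosome 11 at 102453297 to 102470122 and was detected in 105 of 128 Pf4 cells (82.0%) and in 10.6% of other CMP cells. Gp9, a chain of the von Willebrand factor receptor, lies on chromosome 6 at 87778072 to 87779768 and was detected in 75 Pf4 cells and in 5.30% of the others. At equal depth, with each cell thinned to 4000 UMIs, Itga2b was in 70.9% of 110 Pf4 cells and 6.12% of 2973 other cells. Of Itga2b, Gp9, Gp1bb, Gp5 and Treml1 together, 96 of the 128 Pf4 cells (75%) held 3 or more, and 45 of the 3585 other cells (1.26%) did. The 13 Pf4 cells with 1 of the 5 had a median of 3782 UMIs, and the single cell with none had 2995. Markers of the megakaryocyte lineage were present in most of the cells.

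Pf4 cells made up a larger share of the CMP gate than of the other gates. They were 128 of 3713 CMP cells (3.45%, Clopper-Pearson interval 2.88 to 4.09), against 145 of 6284 MEP cells (2.31%), 192 of 10870 LSK cells (1.77%) and 6 of 8027 GMP cells (0.0747%). LSK cells were first cut to the 10882 barcodes with the most UMIs, a step not applied to the other gates. The order of the gates depended on the threshold. With 3 or more UMIs of Pf4 the share was 3.99% in CMP and 3.76% in LSK, and with 10 or more it was 3.02% and 0.662%. After thinning to 4000 UMIs, the shares were 3.37% in CMP, 1.89% in MEP, 0.922% in LSK and 0.0532% in GMP. The Pf4 cells of CMP held 9147 CPM of Pf4 in sum, those of MEP 5895 and those of LSK 2174.

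**Figure D1:**
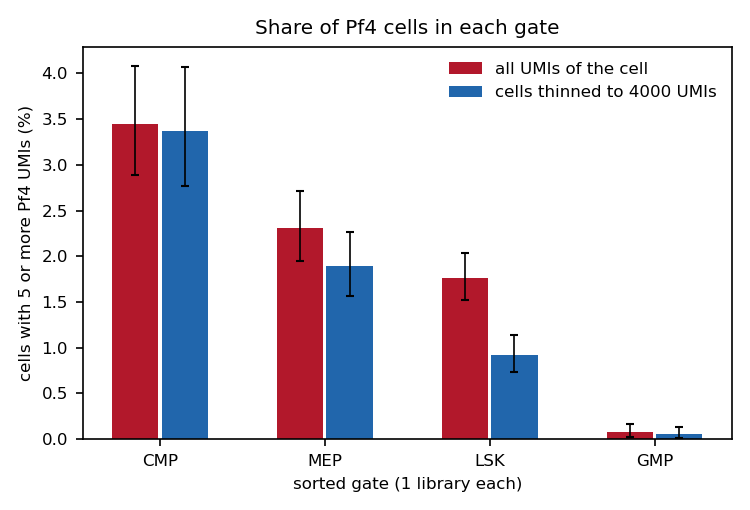
Percentage of cells with 5 or more Pf4 UMIs in each sorted gate (x axis), counted on all UMIs of a cell or after thinning each cell to 4000 UMIs; bars, shares in 1 library a gate; lines, 95% Clopper-Pearson intervals. CMP stands at 3.45% and 3.37%, and LSK at 1.77% and 0.922%.

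To describe the program, UMIs were summed over the Pf4 cells and over the other CMP cells and given as CPM. A gene was called where it reached 50 CPM in the higher class and differed at least 2-fold. Of 3027 genes at that level, 194 (6.41%) were higher in Pf4 cells, Pf4 among them, and 166 (5.48%) were lower. A scaling by the median gene ratio shifts all log2 ratios by 0.11, and relative to it 165 genes were higher and 193 lower. The log2 ratios below are on the CPM scale, and the median over 8468 genes was 0.13. Lists of genes are described by how many of their members at that level were called and by the median log2 ratio of members whose mean reached 5 CPM. A gene under 50 CPM in the lower class reached the level only through the higher class, so its call could go only that way. Gp1bb, Gp5 and Gp9, many receptor genes and the neutrophil genes were such cases. For these the levels are the result, and the direction of the call adds nothing.

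The receptor for von Willebrand factor, the glycoprotein Ib-IX-V complex that first tethers platelets, had 3 of its 4 genes at the level for a call. All 3 were higher (median log2 ratio 4.33), a direction fixed by their reaching the level only in Pf4 cells. Gp1bb was at 391 CPM in Pf4 cells and 2.97 CPM in other CMP cells, a log2 ratio of 7.04 (6.69 to 7.42), Gp9 at 174 and 8.63 CPM, and Gp5 at 155 and 8.74 CPM. Gp1ba was too low to call, with 8 UMIs in Pf4 cells (8.37 CPM) and 0.578 CPM in the others. Of the integrins, both members at that level were higher. Itga2b was at 350 CPM in Pf4 cells and 18.7 CPM in the others (log2 ratio 4.23, 4.02 to 4.43), and Itga6, a laminin receptor chain, at 93.1 and 19.0 CPM. Itgb3, the partner of Itga2b, was at 38.7 and 2.003 CPM, under the level for a call.

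In the alpha granule list, which also holds the receptor gene F2r and the enzyme gene Gpx1, 6 of 9 members were higher and 1 was lower. Pf4 was left out (median log2 ratio 3.54). Summed over the list, Pf4 cells had 2786 CPM and the others 2688 CPM. Thbs1, Sparc, Lyve1 and Pdgfa had 0 UMIs in Pf4 cells. Ppbp, the chemokine gene that neighbours Pf4 on chromosome 5, was at 76.3 CPM in Pf4 cells and 0.270 CPM in the others, and was detected in 32 of the 128 cells. Vwf, von Willebrand factor, was at 100.4 and 0.732 CPM, in 53 of the 128 cells. Serpine2, a protease inhibitor, was at 315 and 3.58 CPM (log2 ratio 6.46, 6.12 to 6.81), and Mmrn1, a carrier of factor V, at 84.7 and 1.04 CPM. Timp3 and the thrombin receptor gene F2r were the other 2. The granule proteoglycan gene Srgn was at 1250 CPM in Pf4 cells and 1245 CPM in the others, and was detected in all 128 Pf4 cells. Gpx1, which reduces peroxides, was lower at 441 and 1237 CPM. The other CXC chemokine genes of the list gave 1 lower call, Cxcl2, at 5.23 CPM in Pf4 cells and 68.2 CPM in the others.

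Receptors and signalling proteins of platelets made up the list with the most higher calls. Of 14 members, 13 were higher and none was lower (median log2 ratio 3.03). Cd9, a tetraspanin of the platelet surface, was at 1213 CPM in Pf4 cells and 86.3 CPM in the others (log2 ratio 3.81, 3.71 to 3.92) and was detected in 124 of the 128 cells. Rap1b, the small GTPase that switches platelet integrins on, was at 999 and 142 CPM, in 125 of the 128 cells. Treml1, F2rl2 and Gucy1a3 had log2 ratios of 5.82, 6.01 and 6.49 (5.45 for Gucy1a3 at 4000 UMIs a cell), and Rgs18, Plek, Lat and Gng11, which act downstream of receptors, 1.94, 2.53, 3.29 and 3.03. The exchange factor gene Rasgrp2 was at 189 and 198 CPM and was not called. Summed over the list, Pf4 cells had 5050 CPM and the others 953 CPM.

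Several genes outside these lists were also far higher. Ehd3, an endocytic recycling protein, was at 97.3 CPM in Pf4 cells and 0.308 CPM in the others. Sdpr, a caveola protein, was at 382 and 2.58 CPM, in 103 of the 128 cells. Rab27b, which serves granule secretion in platelets, was at 211 and 2.97 CPM (log2 ratio 6.15, 5.77 to 6.55). Rbpms2, an RNA-binding protein, was at 56.5 and 1.27 CPM. Of the eicosanoid enzymes, 3 of 4 were higher. Ptgs1, the cyclooxygenase that aspirin blocks in platelets, was at 84.7 and 3.54 CPM, Tbxas1, thromboxane synthase, at 95.2 and 11.1 CPM, and Pla2g4a at 79.5 and 28.3 CPM. Alox5ap, used for leukotriene synthesis, was at 123 and 238 CPM.

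Cytoskeletal genes of megakaryocytes were called in part. Of 13 members, 7 were higher and none was lower (median log2 ratio 1.26). Tuba8 was at 144 CPM in Pf4 cells and 14.6 CPM in the others, Vcl at 54.4 and 8.13 CPM, and Tpm1 at 112 and 34.4 CPM. Tln1, Zyx and Diaph1 had log2 ratios of 1.14, 1.38 and 1.23, which became 0.999, 0.987 and 0.952 when CPM were averaged over cells. Myh9 and Flna, genes of the contractile cortex, were at 81.6 and 50.2 CPM in Pf4 cells and 43.2 and 39.9 CPM in the others, and were not called. Tubb1, the beta tubulin of the platelet's marginal band, and Myl9, a myosin light chain, had 0 UMIs in both classes, which allows up to 3.14 CPM in Pf4 cells.

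**Figure D2:**
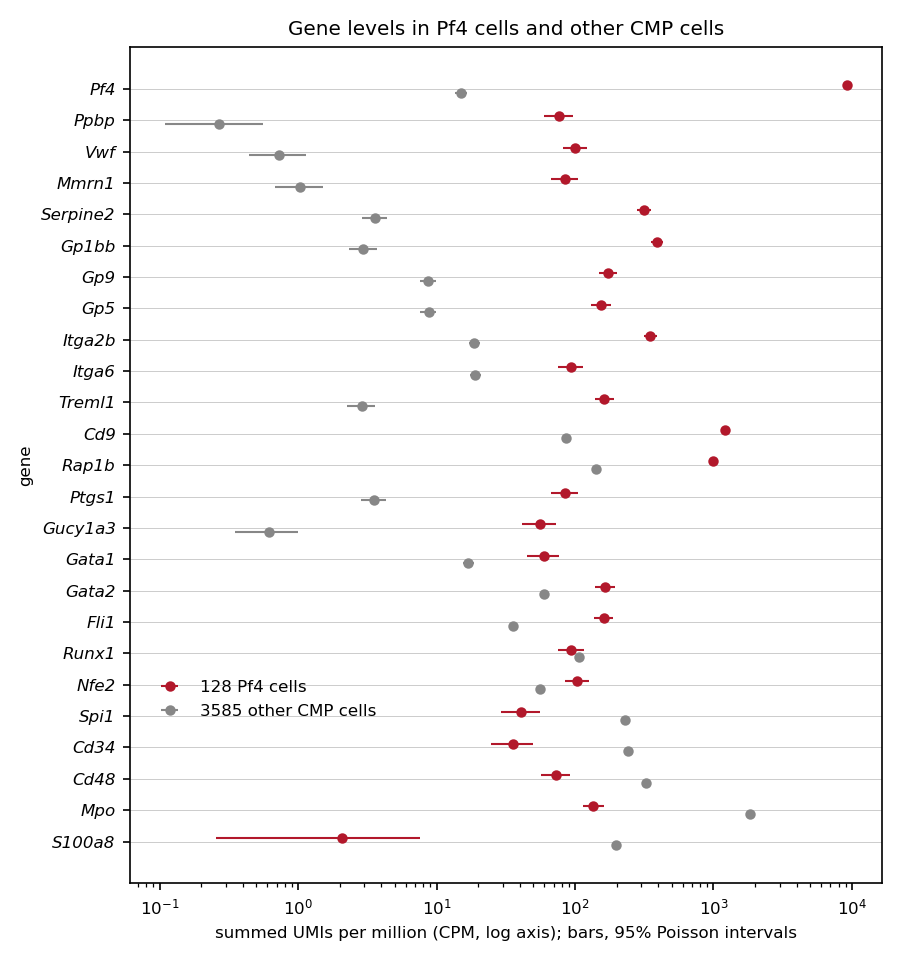
Summed level (CPM, log axis) of genes of the megakaryocyte lists, gate antigens and other lineages (y axis) in the 128 Pf4 cells and the 3585 other CMP cells; lines, 95% Poisson intervals of the counts. Gp1bb stands at 391 and 2.97 CPM, Runx1 at 94.1 and 106 CPM and Mpo at 136 and 1821 CPM.

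Transcription factors were called in both directions. Of 19 members at the level for a call, 9 were higher and 5 lower (median log2 ratio 0.84). Meis1, a homeobox factor, was at 154 CPM in Pf4 cells and 33.7 CPM in the others (log2 ratio 2.19, 1.93 to 2.44). Gata1 and its cofactor gene Zfpm1 (FOG1) were at 59.6 and 88.9 CPM in Pf4 cells and 17.0 and 11.4 CPM in the others. Gata2 was at 165 and 59.4 CPM, Fli1, an ETS factor of megakaryocytes, at 161 and 35.9 CPM, Tal1 at 88.9 and 16.1 CPM and Mef2c at 678 and 236 CPM. Cbfa2t3, a corepressor gene, had a log2 ratio of 1.11, which was 0.855 over the mean of single cells.

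The lower factors were those of granulocyte and monocyte fates and of less mature cells. Spi1, the gene of PU.1, was at 40.8 CPM in Pf4 cells and 230 CPM in the others (log2 ratio -2.49, -2.99 to -2.04), and Cebpa at 6.27 and 62.2 CPM. Myb was at 47.1 and 130.5 CPM. Hhex and Lyl1 had log2 ratios of -1.06 and -1.02, and were under the fold for a call at -0.990 and -0.904 when cells with 3 or 4 Pf4 UMIs were counted as members. Lyl1 also did so under 4 other settings. Runx1, at 94.1 and 106 CPM, and Nfe2, which drives platelet release, at 104 and 55.4 CPM, were not called.

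The antigens of the sort gave an unlike pair of results. Cd34, the antigen that the gate selects for, was at 35.6 CPM in Pf4 cells and 241 CPM in other CMP cells (log2 ratio -2.76, -3.30 to -2.28). It was detected in 23 of the 128 Pf4 cells (17.97%) and in 68.5% of the others, and at 4000 UMIs a cell in 11 of 110 Pf4 cells and 57.3% of the others. Kit was at 34.5 and 47.2 CPM, with a log2 ratio of -0.45 (-0.998 to 0.045). For the antigens selected against, Fcgr3 (CD16) had no UMI in Pf4 cells and 14.4 CPM in the others, Fcgr2b (CD32) 9.41 and 34.7 CPM, and Ly6a (SCA1) 1 UMI in Pf4 cells. RNA and surface protein need not match, and surface levels were not measured here. Of other surface antigens, Cd48 was at 73.2 and 326 CPM and Cd24a at 20.9 and 154 CPM. Slamf1 (CD150), named after its value was seen, was at 9.41 CPM in Pf4 cells and 1.77 CPM in the others, under the level for a call.

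Genes known from stem cells that are primed for the megakaryocyte lineage were mostly higher. Of 8 members, several of which the lists above also hold, 7 were higher and none lower (median log2 ratio 3.15). Pdzk1ip1 was at 121 CPM in Pf4 cells and 12.2 CPM in the others. The lipid carrier gene Apoe was the exception, at 396 and 454 CPM. Of 7 general stem cell genes, 4 were higher and 2 lower. Angpt1, a ligand of the TIE2 receptor, was at 207 and 69.6 CPM, and Ifitm3 at 828 and 333 CPM. Ctla2a had a log2 ratio of 1.24, or 0.832 over the mean of single cells. Ifitm1 was lower at 74.3 and 388 CPM, and Sox4 at 69.0 and 164 CPM. Mecom, a gene of the most immature stem cells, was near 0, with 5 UMIs in the Pf4 cells.

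Genes of the other myeloid lineages were lower. Of 13 granulocyte-monocyte progenitor genes, 11 were lower and none higher (median log2 ratio -3.31). All 4 neutrophil genes and all 7 monocyte and dendritic genes at the level for a call were lower, and so were 3 of 4 basophil and mast cell genes. Clec12a, a lectin of myeloid cells, was at 7.32 CPM in Pf4 cells and 279 CPM in the others, and Lgals1, a galectin, at 56.5 and 1218 CPM. S100a8, a subunit of the neutrophil protein calprotectin, had 2 UMIs in Pf4 cells (2.09 CPM) and 197 CPM in the others. It was detected in 1.56% of Pf4 cells and 3.38% of the others, and S100a9 in 0.78% and 2.09%. Camp was detected in 1.56% and 1.98% in the same order, and Ngp in 3.1% and 1.62%. The neutrophil CPM of the other CMP cells thus came from few cells, and most cells of both classes had no UMI of these genes. F13a1, the factor XIII chain of monocytes and platelets, had no UMI in Pf4 cells and 104 CPM in the others. With the floor of 3 counts over the Pf4 cells it was 33.2-fold lower, and the interval of its log2 ratio reached up to -4.75. The 7 eosinophil genes and 8 of 9 B cell genes had 0 UMIs in the Pf4 cells, as did 9 of 13 macrophage genes, whose sum was 5.23 CPM in Pf4 cells and 24.1 CPM in the others. No endothelial or stromal gene reached the level for a call, and the 10 listed summed to 84.7 CPM in Pf4 cells and 54.5 CPM in the others.

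The granule protease genes of neutrophil precursors were present at low level in most Pf4 cells and at high level in a few. Mpo was at 136 CPM in Pf4 cells and 1821 CPM in the others, and was detected in 50 of the 128 cells (39.1%) and in 82.6% of the others. Over Pf4 cells, the levels of Mpo, Ctsg, Prtn3, Elane and Plac8 were 7.46%, 6.45%, 8.42%, 8.82% and 7.23% of those in other CMP cells. The 447 UMIs of Mpo, Elane, Ctsg and Prtn3 were uneven among the cells. In 8 Pf4 cells these genes made up 1000 CPM or more, and those cells held 292 of the UMIs (65.3%). They included the deepest Pf4 cell, with 20885 UMIs in all, 131 granule UMIs and 246 of Pf4, and 4 of the 6 cells scored as doublets. In the other 120 Pf4 cells the sum was 178 CPM, against 6153 CPM in other CMP cells, and 32 of them had none. Free RNA and doublets can both give such UMIs, and their part in the result was not tested.

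**Figure D3:**
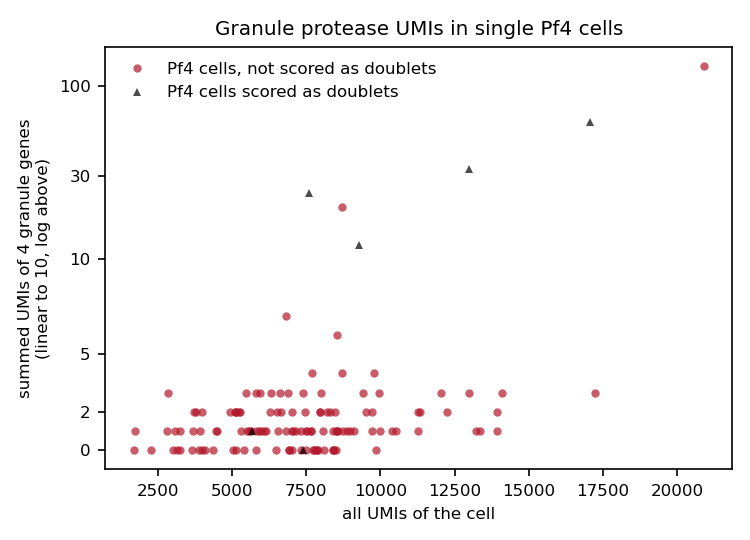
Summed UMIs of Mpo, Elane, Ctsg and Prtn3 (y axis, linear to 10 and logarithmic above) against all UMIs of the cell (x axis) in each of the 128 Pf4 cells; triangles, cells scored as doublets. The 120 cells under 1000 CPM of these genes hold 0 to 6 of their UMIs, and the deepest cell holds 131.

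Leaving out those 8 cells, a choice made after the data were seen, lowered the granule and mast cell genes further. For Mpo and Elane the fall follows from the choice, since they were among the genes that picked the cells. Cpa3 and Cd34 were not among those genes. Mpo was then at 64.4 CPM, Elane at 10.3 CPM and Cpa3, a mast cell protease, at 4.60 CPM, against 136, 63.8 and 22.0 CPM with all Pf4 cells. Cd34 was at 21.8 CPM in place of 35.6. The calls were then 210 higher, 189 of them shared with the calls over all cells, and 183 lower, all 166 lower calls among them. Without the cells scored as doublets there were 208 higher and 179 lower calls. The log2 ratio of Irf8, a factor of monocytes and dendritic cells, was -5.26 without doublets and -3.88 with them, and that of the MHC class II chain gene Cd74 -5.23 and -2.91.

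Red cell genes were called in both directions. Of the 22 listed, 9 had 0 UMIs in Pf4 cells, and of the 4 at the level for a call, Aqp1 was higher and Car1 lower (median log2 ratio 0.27). The list summed to 648 CPM in Pf4 cells and 415 CPM in the others, most of it from Car2. Aqp1, a water channel, was at 62.7 CPM in Pf4 cells and 14.5 CPM in the others. Car1, a red cell carbonic anhydrase, was at 5.23 and 77.4 CPM. Car2 was at 449 and 227 CPM (log2 ratio 0.99, 0.84 to 1.13), just under the fold for a call, and was detected in 114 of the 128 cells. Klf1, the master factor of red cells, was at 6.27 and 12.5 CPM, and Ermap and Rhd had 0 UMIs in Pf4 cells. Of 4 heme synthesis genes, only Alas1, the first enzyme of the pathway in non-red cells, was called, as lower, at 11.5 and 67.9 CPM.

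Genes of mitosis were higher in sum in Pf4 cells, and genes of DNA replication were not. Of 18 G2 and mitosis genes, 2 were called higher. Mki67, a marker of dividing cells, was at 237 CPM in Pf4 cells and 99.4 CPM in the others (log2 ratio 1.26, 1.05 to 1.45), and Cenpf, a kinetochore protein, at 236 and 88.9 CPM. Summed over the list, the levels were 3134 and 1959 CPM. At 4000 UMIs a cell, 55.5% of Pf4 cells and 45.0% of other cells held 5 or more UMIs of the list, and 13.6% and 14.6% held none. No gene of the 19 S phase genes was called, and their sums were 2775 and 3002 CPM. The cell cycle inhibitor gene Cdkn2d was called higher with a log2 ratio of 1.03, which was 0.92 after scaling by the median ratio. Megakaryocytes multiply their DNA without dividing; DNA content was not measured here.

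Immediate early genes, which respond to stimulation within minutes, were lower. Of 11 members, 7 were lower and none higher (median log2 ratio -1.24). Fos was at 286 CPM in Pf4 cells and 817 CPM in the others (log2 ratio -1.52, -1.69 to -1.34), and was detected in 65 of the 128 cells and 78.2% of the others. Egr1 was at 71.1 and 231 CPM and Junb at 207 and 491 CPM. Jun, at 1046 and 881 CPM, and Jund, at 827 and 540 CPM, were not called. Ier2 had a log2 ratio of -1.11, or -0.903 at 4000 UMIs a cell. These genes are also known to be raised by tissue handling, whose part in the result was not tested. Of 16 ribosome biogenesis genes none was called, and of 11 glycolysis genes only Pgam1 was, lower at 163 and 426 CPM. Of the cholesterol synthesis list 1 gene, Fdps, reached the level for a call, and it was not called. The lymphoid-primed and T and NK cell lists each had 1 gene at that level, Il12a and Nkg7, and neither was called.

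The Pf4 cells were not uniform, and some of their other genes varied with their Pf4. They were ranked by Pf4 CPM into 4 groups of 32 cells, from 675 to 2934 CPM in the lowest to 12270 to 24795 CPM in the highest. Depth moved with this rank too, with medians of 5853.5, 7359.5, 7798 and 8070 UMIs a cell from low to high. Gp1bb was at 181, 261, 415 and 616 CPM over the groups, and Cd9 at 691, 1114, 1192 and 1675 CPM. Vwf was at 15.9, 73.3, 123 and 158 CPM, and was detected in 3, 11, 19 and 20 of the 32 cells. Ppbp was detected in 2, 6, 9 and 15 cells. The glycoprotein Ib-IX-V list summed to 462, 545, 729 and 1056 CPM and the receptor list to 3357, 4477, 5304 and 6418 CPM. The summed alpha granule list, at 2688, 2814, 2820 and 2797 CPM, and the transcription factor list, at 3432, 3254, 3362 and 3203 CPM, had no such order. Members of the alpha granule list ran both ways. From the lowest to the highest group, Srgn went from 1445 to 986 CPM and Gpx1 from 659 to 308 CPM. Serpine2 went from 112 to 476 CPM, Timp3 from 10.6 to 91.6 CPM and Mmrn1 from 37.2 to 136 CPM. Tgfb1 and F2r had no such order.

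Several genes ran the other way, from low to high Pf4. Apoe was at 754, 541, 292 and 139 CPM, and Car2 at 818, 454, 339 and 300.5 CPM. Rgs2, a regulator of G protein signalling, was at 462, 119, 108 and 11.0 CPM, and Ier2 at 606, 174, 181 and 77.0 CPM. The immediate early list was at 5052, 3258, 2647 and 1855 CPM, the erythroid list at 1015, 687, 545 and 469 CPM, and the monocyte and dendritic list at 452, 225, 112 and 77.0 CPM. Car2 made up most of the erythroid sum. Of that list's other members, Blvrb was at 85.0, 91.6, 57.8 and 55.0 CPM and Aqp1 at 37.2, 59.6, 83.0 and 62.3 CPM. In the lowest group, the 21 UMIs of Cd74 came from 1 cell and the 13 of Irf8 from 3 cells. The groups held 3, 1, 2 and 0 cells scored as doublets, whose part in these orders was not tested. Gata2, at 170, 192, 173 and 132 CPM, and the S phase list, at 2736, 3020, 2513 and 2874 CPM, had no such order. Mitosis genes were highest in the middle groups, at 2545, 3551, 3618 and 2716 CPM. Over the 128 cells, Spearman's rho with Pf4 CPM was 0.52 for Cd9 and 0.50 for Gp1bb, and -0.57 for Apoe and -0.52 for Rgs2. These cells share 1 library, and depth and the common denominator enter both values; with total UMIs the rho of Apoe was -0.36 and that of Cd9 0.31.

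**Figure D4:**
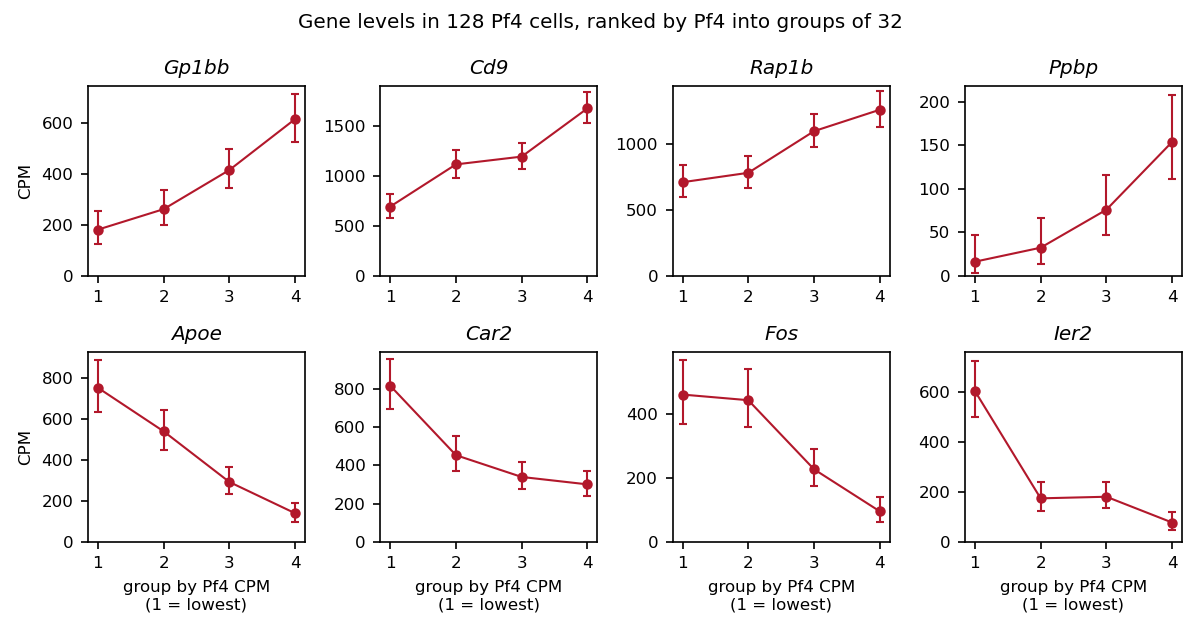
Summed level (CPM) of 8 genes in the 128 Pf4 cells, split into groups of 32 cells by Pf4 CPM (x axis, 1 = lowest); lines through points, 95% Poisson intervals. Gp1bb goes through 181, 261, 415 and 616 CPM and Apoe through 754, 541, 292 and 139 CPM.

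Some CMP cells outside the rule also held platelet receptor genes. The 45 other CMP cells with 3 or more of the 5 surface genes, picked by those genes after the data were seen, included 28 with no Pf4 UMI and 17 with 1 to 4. Their median depth was 6274 UMIs. The Pf4 cells held 391 CPM of Gp1bb and these cells 75.3 CPM, and Cd9 was at 1213 and 329 CPM and Vwf at 100.4 and 6.85 CPM in the same order. Apoe was at 396 CPM in the Pf4 cells and 1595 CPM in these cells, Car2 at 449 and 928 CPM, Gata2 at 165 and 202 CPM and Cd34 at 35.6 and 99.3 CPM. Pf4 itself was at 9147 and 109.5 CPM.

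The same rule was applied to the other gates to see where the CMP cells differ. Within MEP, 255 of 3087 genes (8.26%) were higher in Pf4 cells than in other MEP cells and 104 (3.37%) lower; within LSK, 38 of 3101 (1.23%) were higher and 38 (1.23%) lower. Of the 193 genes higher in Pf4 cells of CMP, Pf4 left out, 99 were also higher in MEP, which is 51.3% of the CMP list and 39.0% of the MEP list. In LSK 26 were also higher, 13.5% of the CMP list and 70.3% of the LSK list. Gp1bb, Itga2b, Gp9, Gp5, Cd9, Rap1b and Sdpr were called in all 3 gates. Each of these contrasts is set against a different mix of other cells.

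Set directly against each other, the Pf4 cells of CMP and MEP differed in few genes. Of 3053 genes, 53 (1.74%) were higher in CMP and 60 (1.97%) lower. None of the glycoprotein, integrin, alpha granule, receptor or eicosanoid members was called. Of 13 cytoskeletal members, Myh9 and Tpm4 were higher in CMP and none was lower. Of 20 transcription factors, Gfi1b and Klf1 were lower in CMP and none was higher. Of 9 megakaryocyte-primed stem cell genes, Aldh1a1 was lower in CMP and none was higher. Gp1bb was at 391 CPM in CMP and 305 CPM in MEP Pf4 cells (log2 ratio 0.36, 0.13 to 0.58), and Vwf at 100.4 and 82.8 CPM (0.28, -0.17 to 0.72). For each of the next genes, the other cells of the library differed the same way. Mpo was at 136 CPM in CMP Pf4 cells and had 0 UMIs in MEP Pf4 cells, with 1821 CPM in other CMP cells and 0.668 CPM in other MEP cells. Car1 was at 5.23 CPM in CMP and 1169 CPM in MEP Pf4 cells, with 77.4 CPM in other CMP cells and 4554 CPM in other MEP cells. Klf1 was at 6.27 and 130 CPM, with 12.5 CPM in other CMP cells and 425 CPM in other MEP cells. The part of free RNA and doublets in these differences was not tested.

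Further genes differed in both classes of cells alike. Gmfg, a regulator of actin branching, was at 407 CPM in CMP and 80.7 CPM in MEP Pf4 cells, with 649 CPM in other CMP cells and 16.6 CPM in other MEP cells. Rgs2 was at 153 and 32.1 CPM, with 316 and 3.20 CPM in the other cells. Of the cell cycle lists, Cenpf and Kif11 were the only genes called, both higher in CMP Pf4 cells. Ndufs8 and Tonsl were higher in CMP than in MEP Pf4 cells by log2 ratios of 1.74 and 2.05, and also stood at 201 and 147 CPM in other CMP cells against 50.6 and 26.4 CPM in other MEP cells. With 1 library a gate, library and gate cannot be told apart.

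Against the Pf4 cells of LSK, those of CMP had higher levels of some platelet genes and lower levels of many stem cell genes. Of 3169 genes, 81 (2.56%) were higher in CMP and 155 (4.89%) lower. Serpine2 was at 315 CPM in CMP and 30.9 CPM in LSK Pf4 cells (log2 ratio 3.35, 2.92 to 3.80), Gp1bb at 391 and 81.0 CPM and Ppbp at 76.3 and 8.74 CPM. Of the receptor and signalling list, 8 of 14 members were higher in CMP and none lower, and so were 2 of 3 glycoprotein Ib-IX-V genes, 1 of 2 integrins, 4 of 9 alpha granule genes, 2 of 13 cytoskeletal genes and 0 of 4 eicosanoid enzymes. Of the stem cell list, 11 of 16 members were lower in CMP and none higher. Mecom was at 5.23 CPM in CMP and 82.2 CPM in LSK Pf4 cells (log2 ratio -3.97, -5.62 to -2.72) and Cd34 at 35.6 and 190 CPM. Gp9 (0.95, 0.63 to 1.28) and Gata2 (0.13, -0.17 to 0.42) were not called. The Pf4 threshold admits cells with less Pf4 in LSK, so the Pf4 level moves with these differences. With Pf4 cells taken at 1000 CPM or more of Pf4 in both gates, 80 genes were higher in CMP, 58 of them shared with the 81, and 145 were lower, 121 of them shared with the 155.

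**Figure D5:**
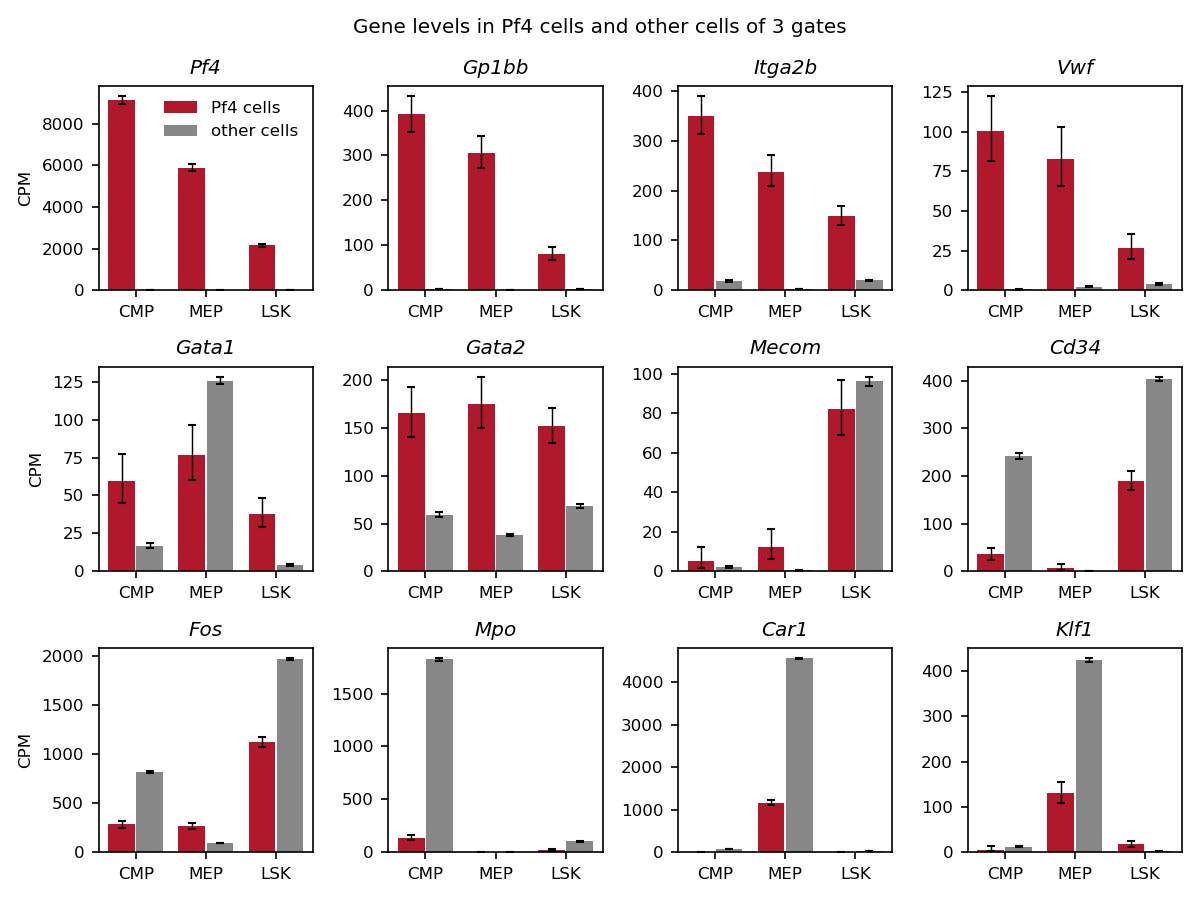
Summed level (CPM, linear axis from 0) of 12 genes in Pf4 cells and in the other cells of the CMP, MEP and LSK gates; bars, 1 library a gate; lines, 95% Poisson intervals. Gp1bb stands at 391, 305 and 81.0 CPM in the Pf4 cells, and Car1 at 5.23, 1169 and 2.33 CPM.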

How the data were processed

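Single-cell 3′ libraries of 4 sorted gates were analysed. The matrices hold whole-number UMI counts per gene and cell, as deposited by the authors; the submitters' processing notes name the build mm10 and the tools Cell Ranger 2.0.0, Seurat 2.3.0 and CASAVA 1.8.2. Which cells the authors filtered out is not stated in the labels. The LSK matrix held 737280 barcodes, and the 10882 with the most UMIs were taken, the number of LSK cells in the design text. The MEP and GMP matrices held 6370 and 8064 barcodes. For CMP, MEP and GMP all barcodes went to the filters on genes and mitochondrial UMIs. The CMP matrix held 3738 barcodes, while the design text states 12185 cells. Counts were summed over the cells of a class with Python 3.11.15, and ratios of CPM were given exact conditional binomial intervals (SciPy 1.17.1), levels Poisson and shares Clopper-Pearson intervals. These cover counting error only. Ratios against 0 use a floor of 3 counts over the class. Doublets were scored against simulated doublets at 0.8% per 1000 cells. The calculation was tested on simulated data. The members and the gene lists were chosen with earlier results of these data known. Genes named were the 15 highest and 15 lowest by ratio in CMP, the 10 of each direction against each other gate, the 5 most abundant of each list, megakaryocyte list members at 20 CPM or more and the gate antigens. Cd24a, Cebpa, Egr1, Kif11 and Slamf1 were named after their values were seen. The kept cells held 26919088 UMIs in CMP, 80273121 in MEP, 75167959 in LSK and 73362645 in GMP. Alternatives varied the Pf4 threshold, doublets, scaling, thinning, level and barcodes. Some list members are not reported here by name.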

Additional observations from a re-analysis of the deposited data

Results flagged for a closer look

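Of the 166 genes lower in Pf4 cells of CMP, 56 were at the level for a call in MEP, and 15 were higher there. Of the 193 higher genes, Pf4 left out, 156 were at that level in MEP and 1 was lower. Over all 3087 genes at that level in MEP, 8.26% were higher and 3.37% lower. Among the named genes 7 were called in opposite directions in CMP and MEP. The difference between the gates was not tested, since each gate is 1 library. Fos had a log2 ratio of -1.52 in CMP and 1.47 in MEP. Its Pf4 cells were at 286 CPM in CMP and 269 CPM in MEP, and the other cells at 817 and 97.1 CPM. Ier2 had log2 ratios of -1.11 in CMP and 1.10 in MEP, Junb of -1.25 and 1.025, and Pgam1 of -1.39 and 1.405. Ifitm1 had -2.39 in CMP and 1.915 in MEP, where it was at 110 CPM in Pf4 cells and 29.1 CPM in other cells. Prtn3 had -3.57 in CMP and 2.57 in MEP, where it was at 52.8 CPM in Pf4 cells and 8.90 CPM in other cells. Aqp1 ran the other way, with 2.12 in CMP and -1.016 in MEP, where it was at 178 CPM in Pf4 cells and 360 CPM in other cells.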

How the results depend on the processing

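No paired analysis was possible because each gate was 1 library, and for the same reason no replicate could be left out. The counts of 194 higher and 166 lower genes in CMP became 736 and 520 with a minimum of 10 CPM, and 4206 and 680 with a minimum of 3 counts only, where more genes are tested. Under the other settings they ran between 165 and 220 higher and between 154 and 193 lower. The MEP share was 1.89% after thinning. The LSK share was 0.922% after thinning, 3.76% with 3 or more Pf4 UMIs, 0.662% with 10 or more and 1.003% with 1000 CPM or more. That last rule gave 39 genes lower in CMP than in MEP Pf4 cells, in place of 60. The causes were not tested. Of 2048 values of 228 named genes under the alternatives 149 moved. A reversal of sign was counted only for the 104 named genes that were called, and none of those was reversed. Of the 104 named calls, 94 stayed past 2-fold under all 9 settings. Averaging the CPM of single cells gave Gp1bb a log2 ratio of 6.39, Vwf 6.31, Ppbp 7.52, Gucy1a3 5.69, Rbpms2 4.79, Treml1 4.96, Alas1 -1.94, Pdzk1ip1 2.49, Aqp1 1.43 and Gata1 1.18. Thinning gave Ppbp 7.43, Mmrn1 7.08 and Tbxas1 2.43. Without doublets Lgals1 was at -5.76, Clec12a at -6.38 and Cpa3 at -4.86. Without the 8 cells rich in granule genes Elane was at -6.13, Ctsg at -5.68 and Cd34 at -3.47. Elane and Ctsg were among the genes that picked those cells, so their shift follows from the choice. Depth limits genes near the floor.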
